A study of Danio rerio with 6 samples.

Results

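The enzymes that send the amino acid tryptophan to kynurenine or to serotonin were measured in RNA of whole zebrafish larvae. The set was fixed by name as 10 gene symbols: tdo2a, tdo2b, afmid, kmo, kynu, haao and acmsd of the kynurenine branch, and tph1a, ddc and mao of the serotonin branch. All entries of a symbol in the authors' table of 30258 genes were taken, which gave 12 entries, because tdo2a and tph1a have a pair of entries each. Transcripts could be assigned to 11 of these entries, and 10 were expressed enough to be tested among 16776 genes.

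The larvae were 5 days post-fertilization (dpf), unchallenged, and either tlr2-/- (3 libraries) or tlr2+/+ (3 libraries). Tlr2 is a receptor of innate immunity that senses microbial lipopeptides. The mutant line, sa19423, came from ENU mutagenesis and had been outcrossed repeatedly to the ABTL wild type, and no agent was given to either genotype. Each library held pooled larvae of a single cross of 2-year-old fish, and mutant and wild type larvae had separate parents, so a difference between the parents cannot be told apart from the mutation. Each library is named by its genotype and replicate number, and values are given in the order of replicates 1, 2 and 3.

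In vertebrates most dietary tryptophan that is not built into protein is oxidized to kynurenine, mainly in the liver, where tryptophan 2,3-dioxygenase opens the indole ring. Kynurenine is then hydroxylated and cleaved, and the products either go on to quinolinate and NAD or are drained toward full oxidation. A much smaller flow goes to serotonin, in serotonergic neurons, gut enteroendocrine cells and the pineal gland, where serotonin is also the precursor of melatonin. The branches compete for the same substrate, which is why their enzymes are set side by side here.

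Library size ran over 17854737 to 24088390 reads in the tlr2-/- libraries and 19828367 to 33403126 reads in the tlr2+/+ libraries. Detection differed among libraries in another way than size. Of the genes at 1 to 10 CPM (reads scaled to a common library size with TMM factors) in the median of the other libraries, 2.77% to 7.28% had no read in a tlr2-/- library. In tlr2+/+ replicates 1, 2 and 3 the share was 25.2%, 32.2% and 1.19%. Every member except afmid and acmsd had a mean below 10 CPM, and each tested member is therefore also given against tlr2+/+ replicate 3 alone. That comparison has 1 library on the wild type side, whose spread is taken to be that of the mutant libraries. The TMM factor of tlr2+/+ replicate 3 was 1.59, against 0.789 to 0.983 in the other libraries. A higher factor gives lower CPM, and how far that comparison rests on the factor was not tested. tlr2 itself has the entries ENSDARG00000037758 and ENSDARG00000116961, both with a mean of 0 over the 6 libraries. A count of 0 allows 3 reads, 0.0564 to 0.183 CPM per library for counting error only, so tlr2 gave no check of the labels.

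No tested entry of either branch changed beyond the spread between libraries. By edgeR's quasi-likelihood test with Benjamini-Hochberg adjustment over all 16776 genes, 0 of the 10 tested entries passed an adjusted p of 0.05, each having an adjusted p of 0.9998. The background was 1 gene, 0.00596% of those tested, and leaving out 1 library moved it to 4 genes (without tlr2-/- replicate 3), 5, 2 and 0 genes (without tlr2+/+ replicates 1, 2 and 3 in turn). At an unadjusted p under 0.05, 0 members were found as well, against 3.73% of all genes, and DESeq2's Wald test (0.179% of all genes called) and limma-trend on log2(TPM + 1) (0.0417%) also called 0 members, though the Wald test gave ddc no p-value and so covered 9 of the 10. The 7 tested kynurenine entries all had a negative log2 fold change of tlr2-/- over tlr2+/+, with a median of -0.33, and the 3 tested serotonin entries all had a positive one, with a median of 1.103. Over all genes 48.9% were negative and 51.1% positive, with a median of 0.02. These signs describe the libraries and carry no test. The standard errors (SE) of the members ran over 0.52 to 2.15, beside a median SE of 1.14 over all genes. An interval of 2 SE on either side held 0 for all 10 entries.

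**Figure D1:**
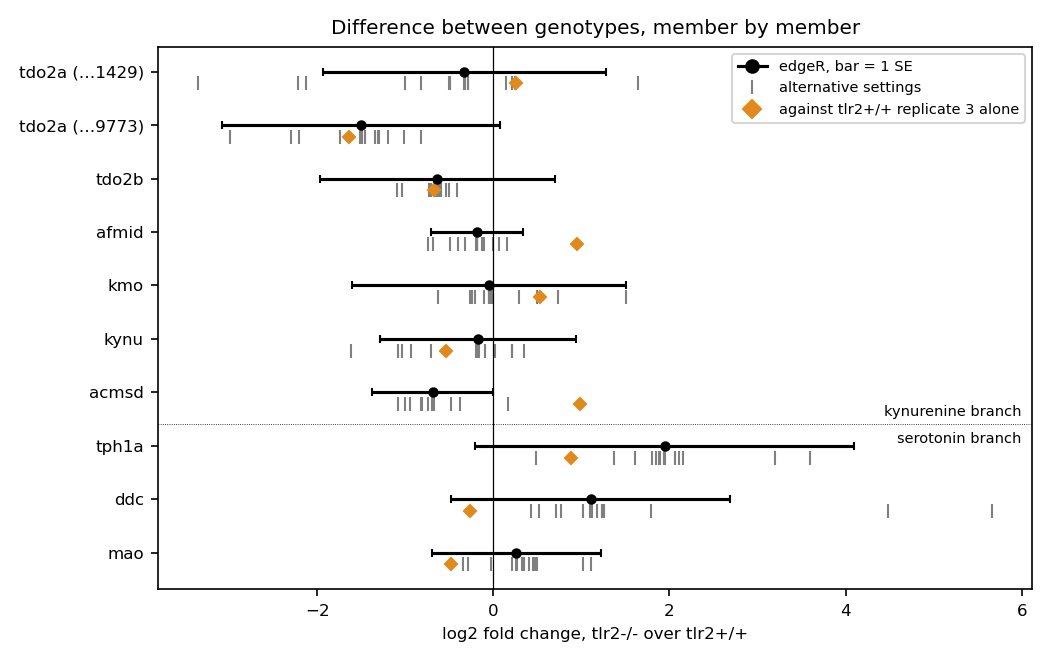
Log2 fold change of tlr2-/- over tlr2+/+ larvae (x axis) for the 10 tested entries (y axis). Black points and bars are edgeR estimates with 1 SE, grey ticks are estimates under other settings (apeglm left out, since it shrinks them), and orange diamonds compare the mutants with tlr2+/+ replicate 3 alone. The 7 kynurenine entries lie left of 0 and the 3 serotonin entries right of it, every SE bar reaches 0, and 6 diamonds have the opposite sign from their black point.

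The kynurenine branch starts with tryptophan 2,3-dioxygenase, which zebrafish encode in tdo2a and tdo2b. The entry tdo2a ENSDARG00000071429 had 0.0459, 7.37 and 0.609 CPM in tlr2-/- libraries, against 2.06, 5.48 and 2.54 CPM in tlr2+/+ libraries. The highest and the lowest library were both mutant, and the groups overlapped. Its log2 fold change was -0.33 (SE 1.61, adjusted p = 0.9998 by edgeR's quasi-likelihood test), and it became positive without tlr2-/- replicate 1 (0.25), tlr2-/- replicate 3 (0.14) or tlr2+/+ replicate 2 (0.21). Against tlr2+/+ replicate 3 alone it was 0.26.

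The other entry, tdo2a ENSDARG00000109773, had 2.98, 0.684 and 0.244 CPM in tlr2-/- libraries, against 1.83, 4.70 and 4.57 CPM in tlr2+/+ libraries. Mutant replicate 1 lay above wild type replicate 1, and otherwise the mutants were lower. The log2 fold change was -1.50 (SE 1.58) and -1.64 against tlr2+/+ replicate 3 alone. With 1 library left out it lay between -2.99 (without tlr2-/- replicate 1) and -1.02 (without tlr2-/- replicate 3). tdo2b (ENSDARG00000023176) had 3.26, 1.89 and 1.46 CPM in tlr2-/- libraries, against 3.06, 3.26 and 3.95 CPM in tlr2+/+ libraries. Here too only mutant replicate 1 reached the wild type range. Its log2 fold change was -0.64 (SE 1.34) and -0.68 against tlr2+/+ replicate 3 alone, and it lay between -1.03 and -0.41 without those same mutant libraries.

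The tdo2a entries share reads. In tlr2-/- replicate 2 the estimated reads were split as 140.4 and 12.64 and summed to a whole 153, so the level of one entry cannot be read apart from the other. Summed over the pair, tdo2a had 66, 153 and 14 reads in tlr2-/- libraries and 117, 184 and 378 reads in tlr2+/+ libraries, with a log2 fold change of -0.82 (SE 0.94). The transcript behind ENSDARG00000071429 also differed between libraries. A transcript of 1552 nt (ENSDART00000105590.6) held all reads of the 3 tlr2-/- libraries, though these were only 1, 140.4 and 10 reads. It also held 91.9% of those of tlr2+/+ replicate 3, while a transcript of 1442 nt (ENSDART00000150731.2) held all reads of tlr2+/+ replicates 1 and 2. With tdo2a and tdo2b together, the level per transcript length (TPM) was 4.44, 4.89 and 1.32 in tlr2-/- libraries and 5.18, 9.09 and 14.6 in tlr2+/+ libraries. These TPM sums did not overlap, and of all genes tested 12.9% were lower without overlap in TPM. In CPM the sums were 6.29, 9.95 and 2.31 in tlr2-/- libraries and 6.96, 13.4 and 11.1 in tlr2+/+ libraries, and they overlapped.

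**Figure D2:**
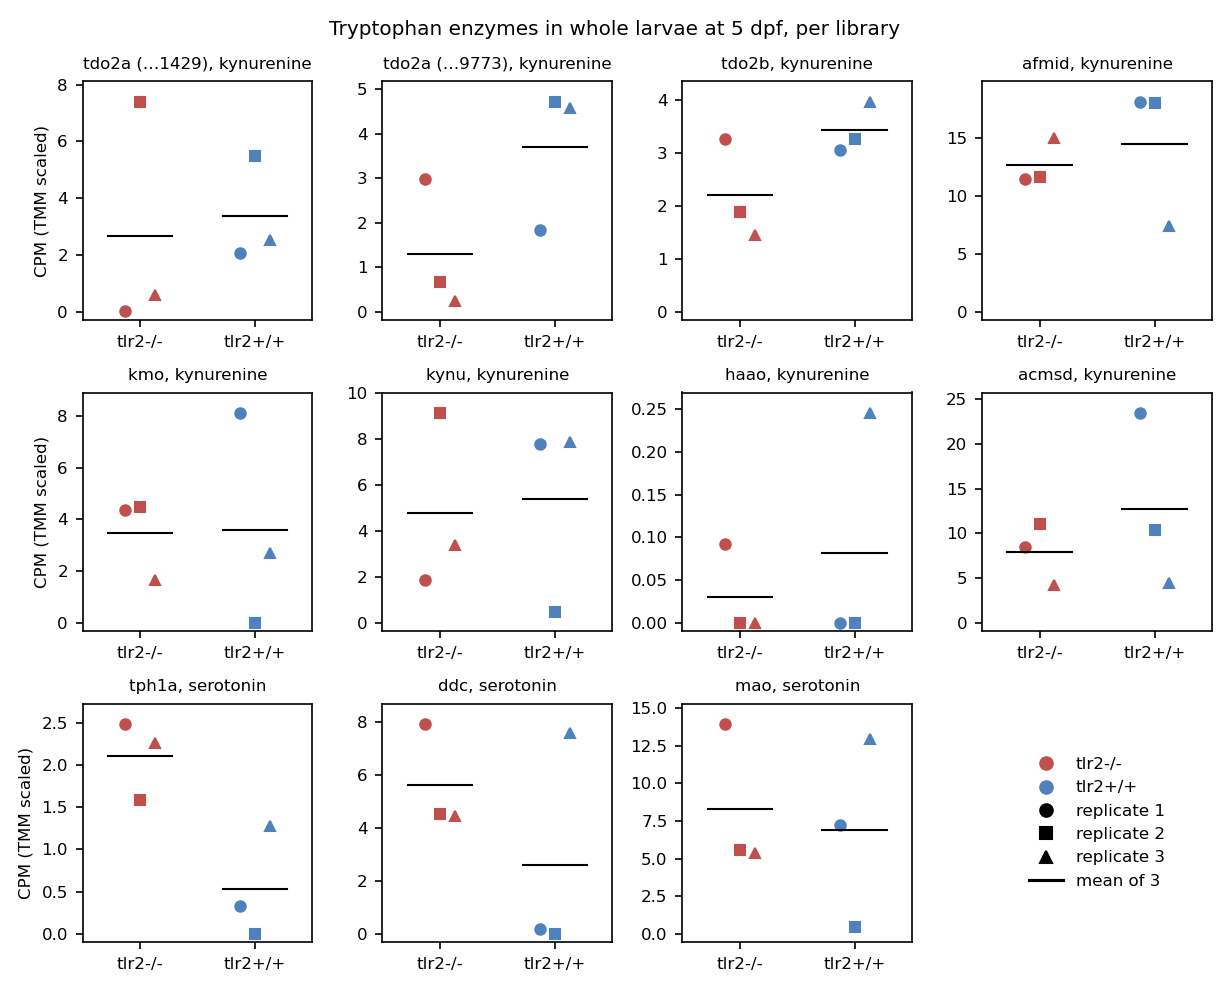
TMM-scaled CPM (y axis, from 0, own scale per panel) of the 11 entries with assigned transcripts in tlr2-/- and tlr2+/+ larvae. Symbols mark replicates and lines the mean of 3 libraries. tph1a is the 1 entry whose groups do not overlap, with 1.58 CPM in the lowest mutant library and 1.28 CPM in the highest wild type library.

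afmid (ENSDARG00000099106) encodes arylformamidase, which hydrolyses the formylkynurenine made by the dioxygenases. It was the member with the highest level, a median of 11.4 TPM over the 6 libraries. Its CPM values were 11.5, 11.7 and 15.0 in tlr2-/- libraries, against 18.1, 18.1 and 7.39 in tlr2+/+ libraries. The wild type libraries lay on both sides of the mutants. The log2 fold change was -0.19 with an SE of 0.52, the smallest among the members, and the interval of 2 SE ran from -1.23 to 0.86. It was 0.068 without tlr2+/+ replicate 1 and 0.95 against tlr2+/+ replicate 3 alone.

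In TPM, afmid was lower in every mutant library, with 8.34, 6.97 and 11.2 TPM in tlr2-/- libraries against 22.7, 11.5 and 11.6 TPM in tlr2+/+ libraries. This too stands beside 12.9% of all genes lower without overlap in TPM, with 2.53% higher, and log2(TPM + 1) had a median difference of -0.22 over all genes, so this pattern was common on that scale. afmid was measured through 8 transcripts. The 1413 nt transcript had 8.09, 5.98 and 6.98 TPM in tlr2-/- libraries, against 8.24, 9.21 and 7.04 TPM in tlr2+/+ libraries. The high total of tlr2+/+ replicate 1 came with a 680 nt transcript at 14.4 TPM, which had no read in the other 5 libraries.

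**Figure D3:**
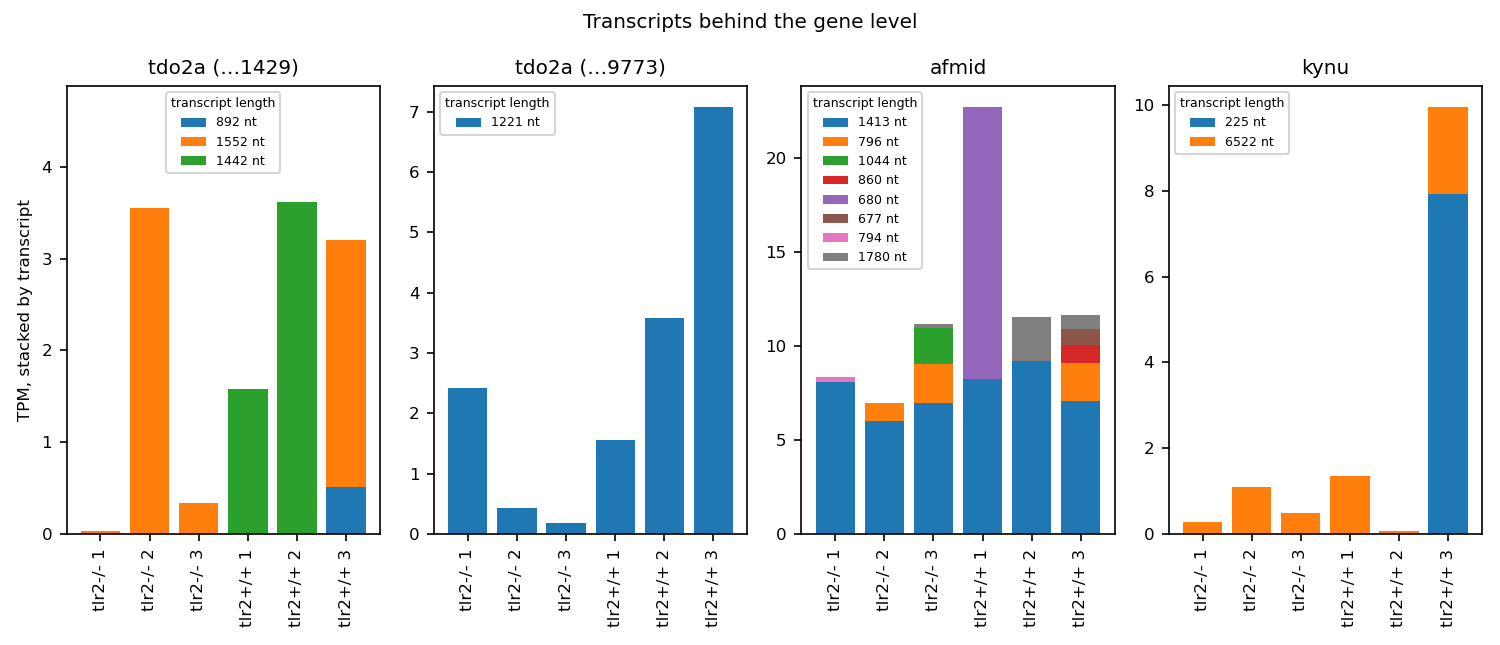
TPM (y axis, own scale per panel) of the 2 tdo2a entries, afmid and kynu in each library, stacked by transcript and coloured by transcript length. A 1442 nt transcript stands in for the 1552 nt one in tlr2+/+ replicates 1 and 2 for tdo2a, a 680 nt transcript adds 14.4 TPM to afmid in tlr2+/+ replicate 1, and a 225 nt transcript adds 7.92 TPM to kynu in tlr2+/+ replicate 3.

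kmo (ENSDARG00000009160) encodes kynurenine 3-monooxygenase of the outer mitochondrial membrane, which makes 3-hydroxykynurenine. It had 4.36, 4.47 and 1.64 CPM in tlr2-/- libraries, against 8.09, 0 and 2.71 CPM in tlr2+/+ libraries. The wild type libraries held both the highest value and a value of no read. Its log2 fold change was -0.05 (SE 1.55), and it was 1.51 without tlr2+/+ replicate 1, 0.29 without tlr2-/- replicate 3 and 0.53 against tlr2+/+ replicate 3 alone.

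kynu (ENSDARG00000099546) encodes kynureninase, which cleaves kynurenine and 3-hydroxykynurenine. Its CPM values were 1.88, 9.11 and 3.41 in tlr2-/- libraries, against 7.79, 0.498 and 7.88 in tlr2+/+ libraries. Either genotype spanned low and high libraries. The log2 fold change was -0.17 (SE 1.11), and its sign turned without tlr2-/- replicate 1 (0.21), tlr2-/- replicate 3 (0.019), tlr2+/+ replicate 1 (0.35) or tlr2+/+ replicate 3 (0.22). The TPM of kynu was 9.95 in tlr2+/+ replicate 3 and at most 1.34 in the other libraries, because 8.82 reads of a 225 nt transcript counted there as 7.92 TPM while 410.4 reads of the 6522 nt transcript counted as 2.03 TPM. With offsets for transcript length the log2 fold change was -1.62, and against tlr2+/+ replicate 3 alone it was -0.54 without such offsets.

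haao and acmsd act on either side of the branch point to NAD. haao (ENSDARG00000076487) encodes 3-hydroxyanthranilate 3,4-dioxygenase, whose product can cyclise to quinolinate. It had 2, 0 and 0 reads in tlr2-/- libraries, against 0, 0 and 13 reads in tlr2+/+ libraries, too few to test. acmsd (ENSDARG00000062549) encodes the decarboxylase that takes that product away from quinolinate. It had 8.53, 11.1 and 4.20 CPM in tlr2-/- libraries, against 23.4, 10.4 and 4.52 CPM in tlr2+/+ libraries. The genotypes differed by 1 library, wild type replicate 1, and otherwise covered the same range. Its log2 fold change was -0.69 (SE 0.69), 0.16 without tlr2+/+ replicate 1 and 0.98 against tlr2+/+ replicate 3 alone.

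Summed over the 8 kynurenine entries, the level was 20.8, 20.2 and 16.2 TPM in tlr2-/- libraries (19.1 ± 2.52, SD, n = 3), against 50.3, 27.2 and 44.1 TPM in tlr2+/+ libraries (40.6 ± 11.9, SD, n = 3). These totals did not overlap. In CPM the sums were 32.7, 46.3 and 26.6 in tlr2-/- libraries (35.2 ± 10.1, SD, n = 3) and 64.4, 42.4 and 33.8 in tlr2+/+ libraries (46.9 ± 15.7, SD, n = 3), and they overlapped. The TPM totals of tlr2+/+ replicates 1 and 3 hold the 14.4 TPM of the 680 nt afmid transcript and the 7.92 TPM of the 225 nt kynu transcript. Less those values, both totals still lay above the highest mutant total of 20.8 TPM. So did the 27.2 TPM of tlr2+/+ replicate 2, which holds neither transcript. Other short transcripts were left in for either genotype, and their part in the totals was not tested. Mutant TPM also ran lower than wild type TPM over genes in general, as given for afmid.

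The liver is the main site of this branch, so hepatocyte markers were read beside it. All 8 markers had reads in every library. Their summed level was 2083, 3313 and 1138 CPM in tlr2-/- libraries, against 2647, 2016 and 826 CPM in tlr2+/+ libraries, overlapping, with 5 markers positive and 3 negative. In every library apoa2 was the largest part of this sum. The 1 marker at an unadjusted p under 0.05 was tfa, which encodes transferrin, with a log2 fold change of -0.81 (SE 0.37, adjusted p = 0.9998 by edgeR's quasi-likelihood test). The tfa groups did not overlap in CPM, as for 6.19% of all genes in this direction. In whole larvae, fewer cells of a type and less RNA per cell cannot be told apart, and the part of hepatocyte content in the kynurenine values was not tested.

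**Figure D4:**
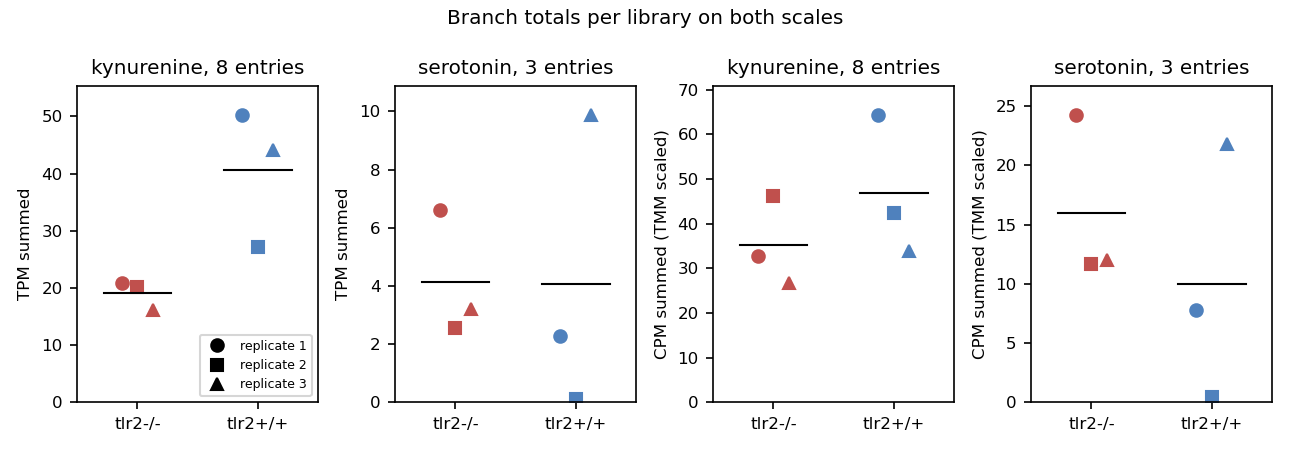
Summed level of the kynurenine entries (8) and serotonin entries (3) per library in tlr2-/- and tlr2+/+ larvae, as TPM in the left panels and TMM-scaled CPM in the right panels (y axes from 0). Points are libraries, with replicates by symbol, and lines are means of 3 libraries. The kynurenine sums are apart in TPM, 16.2 to 20.8 in mutants against 27.2 to 50.3 in wild types, and overlap in CPM, and the serotonin sums overlap on both scales.

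Serotonin synthesis begins with tryptophan hydroxylase, the rate-limiting step, and tph1a encodes a form found in the pineal gland among other sites. tph1a (ENSDARG00000029432) had 2.48, 1.58 and 2.25 CPM in tlr2-/- libraries, from 54, 29.6 and 37 reads, against 0.333, 0 and 1.28 CPM in tlr2+/+ libraries, from 10, 0 and 68 reads. All mutant libraries lay above all wild type libraries. It was the 1 member of 10 without overlap in CPM, and of all genes tested 6.88% were higher without overlap and 6.19% lower. The log2 fold change was 1.94 with an SE of 2.15, the largest among the members, and the interval of 2 SE ran from -2.36 to 6.24 (adjusted p = 0.9998 by edgeR's quasi-likelihood test). With 1 library left out it lay between 1.37 (without tlr2+/+ replicate 2) and 3.59 (without tlr2+/+ replicate 3), and it was 0.88 against tlr2+/+ replicate 3 alone. In TPM the groups overlapped, with 1.19, 0.595 and 0.981 TPM in tlr2-/- libraries against 0.173, 0 and 1.14 TPM in tlr2+/+ libraries.

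The other tph1a entry, ENSDARG00000114918, had 18 reads after rounding, all in tlr2-/- replicate 2, and could not be tied to a transcript. The fitted entry has 1 transcript and a fractional 29.6 reads in that library, so there the entries cannot be read apart. With the entries summed, the log2 fold change of tph1a was 2.16 (SE 2.05). Pineal markers were read beside tph1a, which is 1 of the 5 on that list. Their sum was 87.8, 112 and 107 CPM in tlr2-/- libraries, against 88.3, 48.3 and 64.7 CPM in tlr2+/+ libraries, with 3 positive and 2 negative. In every library gngt1 was the largest part of this sum. It had 52.8, 69.0 and 60.0 CPM in tlr2-/- libraries, against 60.0, 22.5 and 48.1 CPM in tlr2+/+ libraries, and its groups overlapped. The RNA was of whole larvae, so the tissue that gave the gngt1 reads cannot be told. exorh, the opsin of the pineal photoreceptor, had a log2 fold change of 1.079 (SE 0.42, unadjusted p = 0.0231 and adjusted p = 0.9998 by edgeR's quasi-likelihood test), from 30.2, 36.8 and 40.01 CPM in tlr2-/- libraries and 21.0, 19.6 and 10.03 CPM in tlr2+/+ libraries. aanat2 and asmt, which make melatonin from serotonin, had log2 fold changes of -0.82 (SE 1.94) and -0.61 (SE 1.37). The part of pineal cell content in the tph1a values was not tested.

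ddc (ENSDARG00000016494) encodes aromatic L-amino acid decarboxylase, which makes serotonin from 5-hydroxytryptophan and also dopamine from L-DOPA. It had 7.89, 4.53 and 4.45 CPM in tlr2-/- libraries, against 0.200, 0 and 7.58 CPM in tlr2+/+ libraries. Wild type replicates 1 and 2 lay far below every other library, and wild type replicate 3 lay within the mutant range. The log2 fold change was 1.103 (SE 1.59). Without tlr2+/+ replicate 3 it was 5.66, with an unadjusted p of 0.0143 and an adjusted p of 0.259 by edgeR's quasi-likelihood test, in a fit where 2923 genes had an unadjusted p under 0.05. Against tlr2+/+ replicate 3 alone it was -0.27.

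mao (ENSDARG00000023712) encodes the single monoamine oxidase of zebrafish, which degrades serotonin and dopamine. It had 13.9, 5.58 and 5.36 CPM in tlr2-/- libraries, against 7.26, 0.443 and 12.9 CPM in tlr2+/+ libraries. Apart from the low wild type replicate 2, the genotypes covered the same range. The log2 fold change was 0.26 (SE 0.96), and it was -0.34 without tlr2-/- replicate 1, -0.29 without tlr2+/+ replicate 2 and -0.48 against tlr2+/+ replicate 3 alone.

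Over the 3 serotonin entries the summed level was 24.3, 11.7 and 12.1 CPM in tlr2-/- libraries and 7.79, 0.443 and 21.8 CPM in tlr2+/+ libraries. In TPM it was 6.62, 2.55 and 3.20 in tlr2-/- libraries and 2.27, 0.106 and 9.88 in tlr2+/+ libraries, and the groups overlapped on both scales. As a share of the TPM of both branches, serotonin entries made up 24.1%, 11.2% and 16.5% in tlr2-/- libraries, against 4.31%, 0.388% and 18.3% in tlr2+/+ libraries. The low shares were those of tlr2+/+ replicates 1 and 2, the libraries with most undetected genes, and tlr2+/+ replicate 3 lay within the mutant range. The serotonin median minus the kynurenine median of the log2 fold changes was 1.43 with all libraries and -0.53 against tlr2+/+ replicate 3 alone. The part of detection in the branch difference was not tested beyond these values.

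Markers of serotonergic cells, summed without tph2, had 1.70, 2.21 and 0.609 CPM in tlr2-/- libraries and 6.89, 0.221 and 2.73 CPM in tlr2+/+ libraries. fev, the defining transcription factor of serotonergic neurons, had no read in any tlr2-/- library nor in tlr2+/+ replicate 2, and had 5.76 CPM in tlr2+/+ replicate 1 and 0.546 CPM in tlr2+/+ replicate 3. slc6a4a, the serotonin transporter, had 1.15, 1.68 and 0.609 CPM in tlr2-/- libraries and 0, 0 and 1.62 CPM in tlr2+/+ libraries, a log2 fold change of 1.07 (SE 2.46). Transcripts were not assigned to tph2, a neuronal tryptophan hydroxylase, whose entries had means of 5.37 and 0.597 normalized counts over all libraries. A further hydroxylase, tph1b, had a log2 fold change of -1.16 (SE 2.43). Neither serotonin cell marker that could be tested passed the threshold.

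By median TPM over the 6 libraries the members ran from afmid (11.4) and acmsd (5.70) through tdo2a ENSDARG00000071429 (2.39), tdo2a ENSDARG00000109773 (1.99), tdo2b (1.94), kmo (1.75) and mao (1.63) to ddc (0.926), tph1a (0.788), kynu (0.782) and haao (0). From tdo2a down to kynu each member's range over libraries covered the median of its neighbours in this order. Read library by library, only mao and ddc among these neighbours kept their order throughout, with mao the higher. The ranges of afmid, 6.97 to 22.7 TPM, and acmsd, 2.55 to 17.2 TPM, overlapped as well, but afmid lay above acmsd within every library.

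The genes around the 10 enzymes gave 0 calls by edgeR's quasi-likelihood test either, and 1 entry, slc3a2a, with an unadjusted p under 0.05. Among 9 tested entries of other kynurenine genes, 4 were positive and 5 negative, with a median of -0.23. aadat and kyat1, aminotransferases that turn kynurenine into kynurenic acid, had log2 fold changes of 3.47 (SE 2.59) and -0.99 (SE 0.90). The values of aadat were 1.01, 2.58 and 0.244 CPM in tlr2-/- libraries and 0, 0 and 0.320 CPM in tlr2+/+ libraries. The part of the zeros of tlr2+/+ replicates 1 and 2 in its estimate was not tested. ido1, the dioxygenase that immune signals induce in mammals, had reads in 2 of the 6 libraries only, 0.548 CPM in tlr2-/- replicate 3 and 0.0188 CPM in tlr2+/+ replicate 3, and was not tested. Among 11 tested serotonin and melatonin genes, 5 were positive and 6 negative, with a median of -0.61. The receptors htr1b and htr3a had log2 fold changes of 2.09 (SE 2.65) and 0.99 (SE 1.92), and aanat1 and asmt2, of the melatonin steps, had -1.66 (SE 2.47) and -1.36 (SE 2.36).

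Uptake of tryptophan depends on amino acid transporters. slc3a2a, the heavy chain that carries large neutral amino acid transporters to the membrane, had 33.8, 39.0 and 38.8 CPM in tlr2-/- libraries, against 87.9, 72.6 and 77.7 CPM in tlr2+/+ libraries. The groups did not overlap, as for 6.19% of all genes in this direction. Its log2 fold change was -1.096 (SE 0.33, unadjusted p = 0.00517), but the adjusted p was 0.9998 by edgeR's quasi-likelihood test. The paper, using DESeq2 with apeglm and an s-value threshold, lists slc3a2a among its downregulated genes. slc3a2a was the 1 of 10 tested transporter entries with an unadjusted p under 0.05, with 4 positive and 6 negative in all. slc36a4, a lysosomal carrier of tryptophan, had 11.7, 14.8 and 16.6 CPM in tlr2-/- libraries and 10.2, 4.92 and 7.32 CPM in tlr2+/+ libraries, a log2 fold change of 0.94 (SE 0.55).

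Tryptophan hydroxylase needs tetrahydrobiopterin as cofactor, and 4 of its 7 tested genes were positive and 3 negative, with a median of 0.14. gch2, a GTP cyclohydrolase of pigment cells, had a log2 fold change of -1.35 (SE 0.74), and gch1 one of 1.65 (SE 2.19). Of 12 tested NAD genes, 5 were positive and 7 negative, with a median of -0.10. nmrk2, a nicotinamide riboside kinase of muscle, had 8.44, 11.9 and 12.5 CPM in tlr2-/- libraries against 30.4, 13.1 and 23.8 CPM in tlr2+/+ libraries. The groups did not overlap, as for 6.19% of all genes in this direction. The log2 fold change of nmrk2 was -1.04 (SE 0.49).

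Kynurenine and its derivatives are ligands of the aryl hydrocarbon receptor. Of 9 tested entries of that receptor, its partners and its targets, 7 were positive and 2 negative, with a median of 0.56. The groups did not overlap for 1 entry that was higher, tiparp, and 1 that was lower, cyp1a, beside 6.88% and 6.19% of all genes, and they overlapped for the other 7. cyp1a, the classical target, had 8.44, 9.42 and 6.94 CPM in tlr2-/- libraries against 24.3, 15.0 and 10.1 CPM in tlr2+/+ libraries, a log2 fold change of -0.995 (SE 0.54). tiparp, which represses the receptor, had 59.9, 72.4 and 64.7 CPM in tlr2-/- libraries against 52.1, 49.8 and 31.2 CPM in tlr2+/+ libraries, a log2 fold change of 0.56 (SE 0.35). Among 7 tested catecholamine genes, which share ddc and mao with the serotonin branch, 4 were positive and 3 negative, and th and dbh had log2 fold changes of 2.81 (SE 2.35) and 2.84 (SE 2.62). th and dbh had no read in tlr2+/+ replicates 1 and 2, where ddc had 6 and 0 reads.

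**Figure D5:**
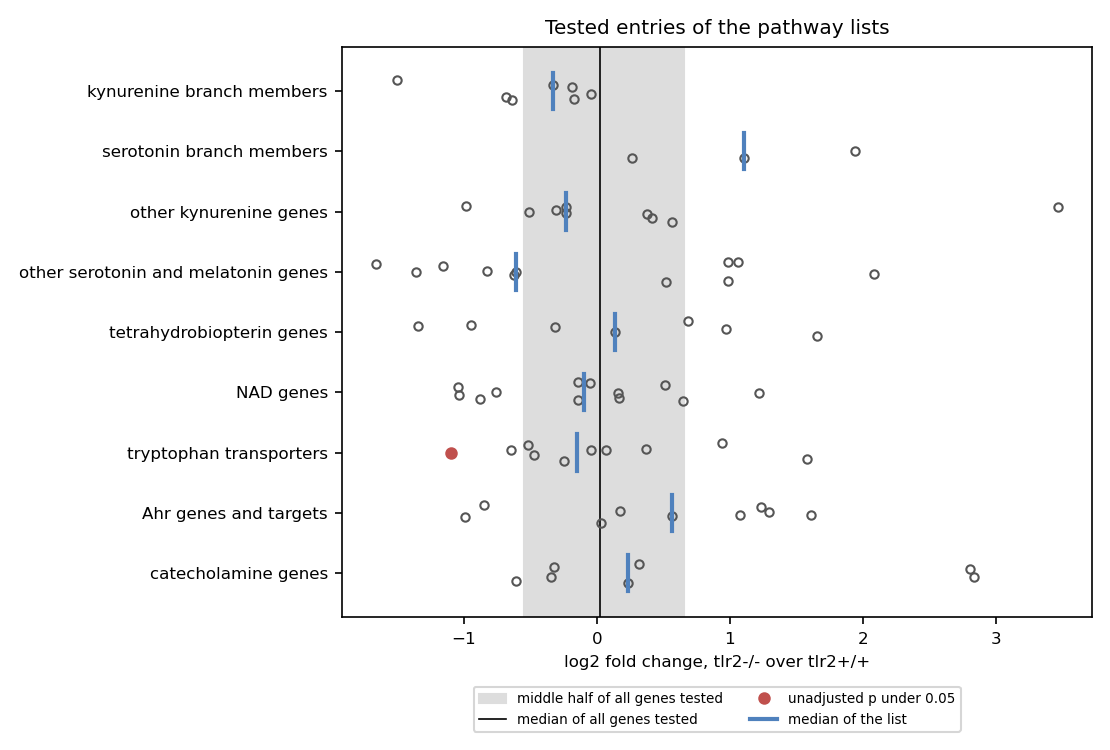
Log2 fold change of tlr2-/- over tlr2+/+ larvae (x axis) for each tested entry of the branches and of 7 related gene lists (y axis). Blue bars are list medians, the grey band lies between the quartiles of all genes tested, -0.55 and 0.65, and the red point is slc3a2a, with an unadjusted p of 0.00517. The band describes single genes and is no scale for the medians, which are 1.103 for the 3 serotonin entries and -0.33 for the 7 kynurenine entries, and no entry passed an adjusted p of 0.05.

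Markers of the other cell types of a larva showed no call beside these values. Summed levels overlapped for enterocytes, with 299.4 to 547 CPM in tlr2-/- libraries and 438 to 540 CPM in tlr2+/+ libraries, and for pronephric tubule, with 40.5 to 51.6 CPM in tlr2-/- libraries and 29.0 to 46.2 CPM in tlr2+/+ libraries. They also overlapped for leukocytes, with 38.3 to 75.7 CPM in tlr2-/- libraries and 28.1 to 70.1 CPM in tlr2+/+ libraries, and for erythrocytes, with 599.8 to 1190.3 CPM in tlr2-/- libraries and 535.9 to 1243 CPM in tlr2+/+ libraries. Muscle markers had 25252 to 36880 CPM in tlr2-/- libraries and 12905.5 to 42690 CPM in tlr2+/+ libraries. None of the tested entries on these lists had an unadjusted p under 0.05, and each list held positive and negative entries.

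Several members had close companions over the 6 libraries. Among 5799 genes with a mean of at least 10 CPM, tph1a ran most like si:ch211-212k18.5 (Pearson r = 0.993 of log2 CPM over 6 libraries) and foxo3b (0.986), and mao most like wu:fc21g02 (0.992) and atrx (0.988). kynu was closest to ndrg1b (0.978) and ppp3r1b (0.976). The tdo2a entries had different companions, slain1a (0.961) and CR848813.2 (0.954) for ENSDARG00000071429 and hmgn2 (0.967) and fam50a (0.960) for ENSDARG00000109773. These are the highest of many correlations over libraries of unequal detection and are a description only. The tdo2a entries share reads, and the part of the read split in their companions was not tested.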

How the data were processed

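Whole-larva RNA was sequenced at 5 dpf in 6 libraries. The members and the gene lists were chosen with earlier results of these data known. Estimated counts are deposited per transcript (57192 transcripts), as the authors obtained them by mapping to GRCz11 with Salmon 1.2.1. The authors deposited TPM values of the same run, which correct for the length of each transcript. For each gene the authors deposited the mean signal over all libraries, in counts after DESeq2 1.24.0 normalization. That table also holds fold changes and s-values of the authors' comparison, which were not used.

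The files pair no transcript with a gene. Runs of up to 40 adjacent transcript rows were therefore assigned to the gene whose deposited mean they give within a relative difference of 1e-12, which held for 21079 of 23956 genes with a mean above 0 and for 0 genes when means were shifted as a control. For 2873 genes with reads in a single library, a tph1a entry included, the gene total was solved from the mean.

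Estimated counts were summed per gene, rounded, filtered with filterByExpr, scaled with TMM factors and tested with genotype as the only factor by the robust quasi-likelihood test of edgeR 4.0.16 (R 4.3.3), with Benjamini-Hochberg adjustment and a threshold of 0.05. The SE is the log2 fold change divided by the square root of F. The coefficient of biological variation was 1.05. A p-value sets the difference between the genotypes against the spread between these samples. The test was checked on simulated data with known changes.

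The named genes are all member entries, up to 4 entries of each list with the smallest p, the 2 genes most correlated with tdo2a, kynu, tph1a and mao, and tlr2. Genes outside this rule (ido1, aanat2, fev, tph2 and apoa2) were named after their values were seen. Alternatives were RLE factors, length offsets, the filter left out or set at a mean CPM of 1, a replicate block, leaving out each library, tlr2+/+ replicate 3 alone, DESeq2 1.42.0 with Wald tests or apeglm 1.24.0, limma-trend 3.58.1 on log2(TPM + 1) or log2(TPM + 0.1), summed entries of a symbol, and transcripts in place of genes. Tables and plots were made in Python 3.11.15 with pandas 2.3.3, numpy 2.4.6 and matplotlib 3.10.9.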

Additional observations from a re-analysis of the deposited data

Results flagged for a closer look

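The second tph1a entry, ENSDARG00000114918, lies outside the fitted genes and had 18 reads after rounding in tlr2-/- replicate 2 and none in the other libraries. It stood out as a signal outside the gene-level test, and it entered only the alternative in which the entries of a symbol were summed, where the log2 fold change of tph1a was 2.16 (SE 2.05). The 18 reads exceed the 3 reads that a count of 0 allows, for counting error only, and they raise the tph1a total of that library to 48 reads. The fitted entry, with 1 transcript, had a fractional 29.6 reads in that library, so how reads were divided between the entries cannot be told.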

How the results depend on the processing

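No member passed the threshold of its test under any of 18 alternatives, except that DESeq2's Wald test gave ddc no p-value. Of 180 member values under them, 156 kept their sign and 24 changed it. tdo2a ENSDARG00000109773, tdo2b and tph1a kept their sign throughout, with ranges of -2.99 to -1.02, -1.03 to -0.41 and 1.37 to 3.59 with 1 library left out. Leaving out 1 library at a time gave ranges of -3.35 to 0.25 for tdo2a ENSDARG00000071429, -0.49 to 0.068 for afmid, -0.63 to 1.51 for kmo, -1.03 to 0.35 for kynu, -1.08 to 0.16 for acmsd 0.52 to 5.66 for ddc and -0.34 to 1.11 for mao. Against tlr2+/+ replicate 3 alone the sign turned for tdo2a ENSDARG00000071429 (0.26), afmid (0.95), kmo (0.53), acmsd (0.98), ddc (-0.27) and mao (-0.48). With transcripts in place of genes, tdo2a ENSDARG00000071429 was 1.64 and afmid 0.16. limma-trend gave -0.021 for mao on log2(TPM + 1) and 0.49 for kmo on log2(TPM + 0.1).

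Same-numbered libraries deviated together with correlations of 0.00184, 0.0438 and 0.0566. Libraries of unlike number had -0.113 to 0.0737, a range that held these values, so the numbers were not taken as pairs. With the replicate block 64 genes passed, none a member, kmo was 0.73 and the serotonin median minus the kynurenine median was 3.69. That difference was 1.43 in the fit reported, -0.53 against tlr2+/+ replicate 3 alone, and 0.65 to 4.08 with 1 library left out. Genes past the adjusted threshold numbered 1 in the fit reported, 0 to 5 with 1 library left out, 3 with no filter, 30 with DESeq2's Wald test, 36 with apeglm, 7 with log2(TPM + 1) and 758 against tlr2+/+ replicate 3 alone. They numbered 0 with length offsets, with the filter at a mean CPM of 1, on log2(TPM + 0.1), with summed entries or with transcripts, where 725, 667, 1437, 610 and 699 features had an unadjusted p under 0.05. The cause was not tested. haao had at most 13 reads in a library, and the part of depth in this was not tested. In mutants, tdo2a ENSDARG00000071429 had 1 and 10 reads in tlr2-/- replicates 1 and 3. tdo2a ENSDARG00000109773 had 4 reads in tlr2-/- replicate 3. tph1a, ddc, kmo, kynu and mao had 10 reads or fewer in at least 1 of tlr2+/+ replicates 1 and 2. Those libraries had 30584310 and 19828367 reads, while the smallest library, tlr2-/- replicate 3, had 17854737 reads.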
